A study of Mus musculus with 22 samples.

Results

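Mouse bladder cancer organoids were compared with primary bladder urothelial organoids by total RNA sequencing, over both Arid1a genotypes. Organoids are epithelial cultures that grow as multicellular structures, and Arid1a encodes a subunit of the BAF chromatin remodelling complex. The comparison used 10 of the 22 libraries of the study, chosen by their titles: 4 of cancer organoids (2 labelled Arid1a wild type, WT, and 2 labelled knockout, KO) and 6 of primary organoids (3 WT and 3 KO). The other 12 libraries were gradient fractions of the primary organoids and were not used here. All 10 were bulk libraries of column-purified RNA, and the labels name no treatment, strain, age, Cre driver or Arid1a allele for either set. The cancer samples carry a tissue label of bladder cancer tissue, while their extraction protocol names organoids and calls them isogenic. No label says that they came from more than 1 tumour or line, or that replicates of either set came from separate cultures, so p-values measure only the spread between these libraries. The cancer and primary sets were processed apart, so set and cancer cannot be told apart in any result below.

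The urothelium lines the bladder. Basal cells, marked by keratins 5 and 14 and by the transcription factor p63, sit on the basement membrane and renew the tissue, and luminal umbrella cells cover it with plaques of uroplakin proteins. Bladder tumours are commonly described as luminal or basal by which of these programmes they keep, and basal tumours often show squamous differentiation, the keratin and envelope programme of skin and mouth epithelium.

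Total counts ranged from 48429672 to 55431426 in the cancer libraries and from 66227600 to 74605489 in the primary ones, and each library detected 15091 to 15565 genes. Arid1a had 79.9 and 233.7 CPM (a gene's count relative to the library total, scaled by TMM factors here and below) in the cancer libraries labelled WT 1 and WT 2 and 208.5 and 67.6 CPM in those labelled KO 1 and KO 2, against 136.3 to 154.0 CPM in primary WT and 91.6 to 102.6 CPM in primary KO. Arid1a counts of the cancer libraries labelled WT 1 and KO 1 thus ran against their labels, and the 4 cancer libraries were treated as 1 group. Ddx3y, on the Y chromosome, had 12 counts in the library labelled KO 2 and 2578 to 3478 in the other 3. Counts of the libraries labelled WT 2 and KO 1 were the most alike of the cancer set (chi-square 46.0 times its degrees of freedom), other cancer pairs lay at 201 to 236 times, and primary pairs within a genotype at 11.9 to 19.2 times. Rn45s, which encodes precursor ribosomal RNA, took a share of 0.191% to 0.299% of counts in cancer and 2.03% to 2.58% in primary libraries.

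Most genes differed between the sets. Of 13901 genes tested with edgeR's quasi-likelihood test, 10722 passed a Benjamini-Hochberg adjusted p of 0.05 (77.1%): 5405 were higher in cancer (38.9%) and 5317 lower (38.2%). The median log2 fold change was -0.0089 and the median absolute one 1.01. Since a pass was the usual outcome, a difference is called large and consistent below only where the adjusted p passed, the absolute log2 fold change was at least 2, and all 4 cancer libraries lay above or all below all 6 primary libraries. Such a lack of overlap, in either direction, held for 65.9% of genes, and all 3 conditions for 3260 (23.5%), of which 1400 were higher (10.1%) and 1860 lower (13.4%). Every share of a gene list below is to be read against these percentages. Just inside the threshold of 2 lay Anapc1 (log2 2.00) and Ctsf (log2 -2.001), and just outside it Nanos1 (log2 1.999) and 5930430L01Rik (log2 -1.999). Against primary WT alone 10220 genes passed (73.5%) and against primary KO alone 10256 (73.8%), and both contrasts share the cancer libraries.

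**Figure D1:**
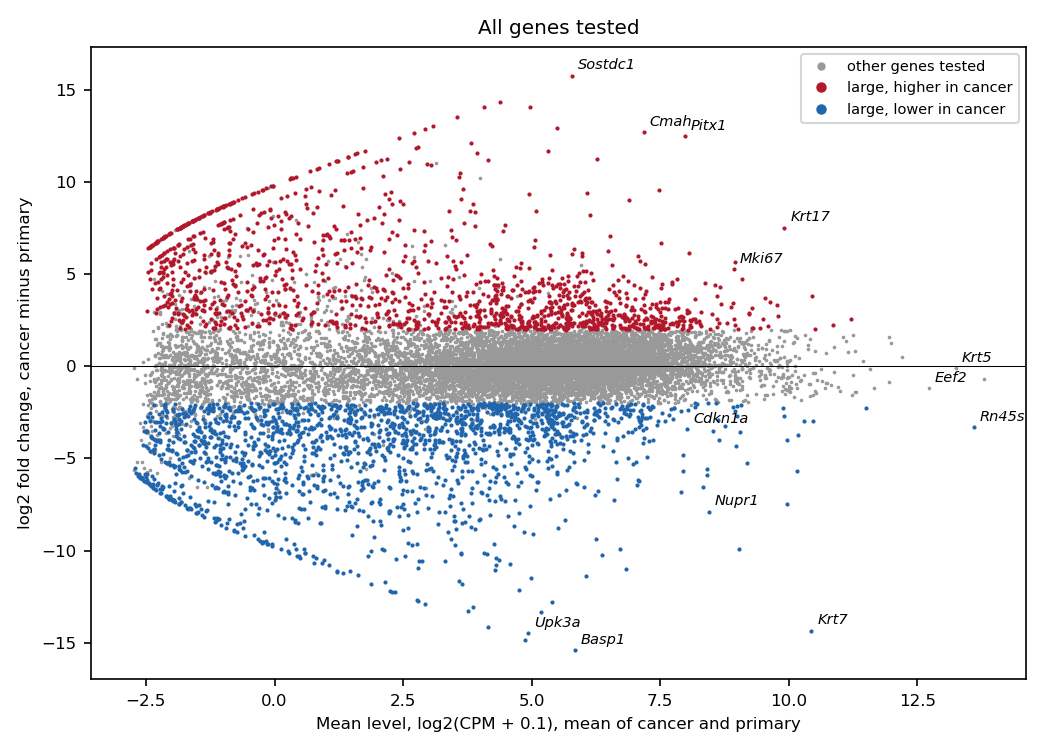
Each point is 1 of 13901 genes tested, by its mean level (horizontal, log2 of CPM + 0.1) and its log2 fold change, cancer minus primary (vertical). The 1400 genes large and higher in cancer and the 1860 large and lower are coloured, and genes with no counts in 1 set form the curved edges, where the fitted fold change is no bound.

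Most luminal and umbrella cell genes were lower in the cancer organoids. Of 28 tested members of the luminal list, 21 were called lower, 4 higher and 3 neither, with 19 large and lower, 0 large and higher and a median log2 fold change of -4.27. Their summed level was 656 to 813 CPM in cancer, 7316 to 7494 CPM in primary WT and 8577 to 9216 CPM in primary KO. In bulk RNA, fewer cells of a type and less RNA per cell cannot be told apart. The uroplakins form the plaques of the umbrella cell surface. Upk3a (chromosome 15, 85017141 to 85022560, GRCm38) had 0 counts in all 4 cancer libraries and 19.98, 18.9 and 20.2 CPM in primary WT and 91.7, 119.6 and 94.3 CPM in primary KO. Taking the 3 counts a 0 allows in a library as the floor, Upk3a was at least 306.9-fold lower in cancer than in primary WT and at least 1588-fold lower than in primary KO. Upk3b and Upk2 were also at 0 in every cancer library, at least 86.11-fold and 47.22-fold lower than in primary WT and at least 809-fold and 223.8-fold lower than in primary KO. Further such bounds are set against the mean of both primary genotypes unless 1 is named. Upk1a had 0.0796, 0.0983, 0.0856 and 0.190 CPM in the cancer libraries labelled WT 1, WT 2, KO 1 and KO 2, against 75.1 to 77.6 CPM in primary WT and 229 to 285 CPM in primary KO (log2 -10.22, SE 0.20, edgeR adjusted p = 1.97e-09). Upk1b was lower with a wider spread, at 4.04, 0.374, 0.321 and 20.9 CPM in the same order of cancer libraries and 78.4 to 190 CPM in primary ones (log2 -4.24, SE 1.10, edgeR adjusted p = 0.00591). Upk3bl, a uroplakin-like gene, was not called and overlapped (3.92 to 38.95 CPM in cancer, 15.8 to 49.5 CPM in primary, log2 -0.45, adjusted p = 0.546 by edgeR). The groups did not overlap for any of the 5 uroplakins named first, and of these 5 the cancer libraries differed among themselves most for Upk1b.

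Simple-epithelial keratins went the same way as the uroplakins. Krt7 (chromosome 15, 101412403 to 101427806, GRCm38) had 0.239, 0.256, 0 and 0.0190 CPM in the cancer libraries labelled WT 1, WT 2, KO 1 and KO 2, while primary libraries held 2410 to 3064 CPM (log2 -14.35, SE 0.58, edgeR adjusted p = 3.35e-08). Krt19 had 0.0642 to 2.11 CPM in cancer and 961 to 1134 CPM in primary libraries (log2 -9.93). Neither gene overlapped between the sets. Krt8 had 9.48 CPM in the cancer library labelled WT 1 and 0.228 to 0.826 CPM in the other 3, against 156 to 398 CPM in primary libraries (log2 -6.46). Its partner Krt18 was less uniform, at 126.7, 4.31, 17.8 and 87.3 CPM in cancer and 580 to 797 CPM in primary libraries (log2 -3.52). Krt20, a marker of mature umbrella cells, was low in both sets: 0.152 to 2.93 CPM in cancer, 6.28 to 6.78 CPM in primary WT and 0.934 to 2.15 CPM in primary KO (log2 -1.09, adjusted p = 0.205 by edgeR). Cancer and primary libraries overlapped for Krt20.

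Several transcription factors of the luminal programme were lower as well. Pparg, a nuclear receptor that drives luminal differentiation, had 0.478, 6.55, 3.83 and 0.514 CPM in the cancer libraries and 33.9 to 90.4 CPM in the primary ones (log2 -4.30, SE 0.76, edgeR adjusted p = 0.000625). Elf3, an epithelial Ets factor, had 13.0 to 38.6 CPM in cancer and 204.5 to 313.7 CPM in primary libraries (log2 -3.21). Foxa1, a pioneer factor, had 32.8 to 63.5 CPM in cancer and 183 to 205 CPM in primary libraries (log2 -2.02). All 3 factors were lower without overlap. Gata3 was not called (log2 -0.95, adjusted p = 0.169 by edgeR): 3 cancer libraries had 57.9 to 97.7 CPM, within or just under the primary range of 83.5 to 134.9 CPM, and the one labelled KO 2 had 4.79 CPM. Without the library labelled KO 2 Gata3 passed, with a log2 fold change of -0.58 (adjusted p = 0.00828). The 4 members called higher in cancer were Klf5 (log2 0.64), Erbb2 (log2 0.39), the receptor gene Fgfr3 (log2 2.07) and Hpgd, a prostaglandin dehydrogenase (0.0199 to 5.41 CPM in cancer, 0 to 0.0693 CPM in primary, log2 5.65), and all 4 overlapped with primary libraries. Fgfr3 had 32.9 to 99.96 CPM in cancer, 4.999 to 6.83 CPM in primary WT and 35.9 to 43.7 CPM in primary KO, so that cancer overlapped with primary KO but not with primary WT.

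Promoters of the uroplakin genes Upk3a and Upk1a are shown to let the reader see the sequence before these genes. The windows hold the 250 bases before the RefSeq start (GRCm38.p6), 5′ to 3′ on the gene's strand, with CpG dinucleotides in capitals. The uroplakin promoters of Upk3a and Upk1a held 6 and 0 of them.
Upk3a, chr15:85016891-85017140, plus strand: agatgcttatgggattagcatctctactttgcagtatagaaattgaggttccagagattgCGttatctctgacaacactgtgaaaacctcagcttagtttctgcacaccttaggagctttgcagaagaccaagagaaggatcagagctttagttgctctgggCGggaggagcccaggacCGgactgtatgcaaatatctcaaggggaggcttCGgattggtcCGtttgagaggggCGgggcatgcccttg
Upk1a, chr7:30612735-30612984, minus strand: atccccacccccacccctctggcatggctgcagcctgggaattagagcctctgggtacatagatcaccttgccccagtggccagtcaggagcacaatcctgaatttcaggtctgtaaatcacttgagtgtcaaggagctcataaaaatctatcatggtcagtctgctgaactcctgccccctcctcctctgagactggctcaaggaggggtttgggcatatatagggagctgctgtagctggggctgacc
Over the 20 of 28 tested luminal genes with a window, the median was 8 CpG, against 15 over the 10955 tested genes with a window, 13 over large genes higher in cancer and 10 over large genes lower in cancer.

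The main basal keratin was at like levels in both sets, and most basal genes were called higher in cancer, few of them large. Krt5, the main basal keratin, had 7859 to 11010 CPM in cancer and 8503 to 11290 CPM in primary libraries (log2 -0.10, SE 0.11, adjusted p = 0.418 by edgeR), so the ranges lay over each other. Its partner Krt14 had 4120, 6740, 5491 and 7419 CPM in the cancer libraries labelled WT 1, WT 2, KO 1 and KO 2 and 1677 to 2487 CPM in the primary ones (log2 1.57, SE 0.15, edgeR adjusted p = 7.71e-06). Trp63, which encodes p63, had 499.5 to 1022 CPM in cancer and 238.5 to 393.9 CPM in primary libraries (log2 1.34). Of the 28 tested basal genes 18 were called higher and 5 lower, with a median log2 fold change of 1.03. Over all genes tested 38.9% were called higher and 38.2% lower. Large were 3 of the higher and 3 of the lower basal genes, near the shares over all genes tested (10.1% and 13.4%). Cd44, a hyaluronan receptor of basal cells, was higher in every cancer library (log2 1.15).

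Of the basal keratins, Krt17 differed most. Krt17 (chromosome 11, 100256215 to 100261029, GRCm38), a keratin of activated and tumour epithelium, had 1130, 1878, 2232 and 2398 CPM in the cancer libraries, against 20.4, 18.2 and 20.5 CPM in primary WT and 5.52, 5.94 and 4.85 CPM in primary KO (log2 7.53, SE 0.23, edgeR adjusted p = 7.83e-09). Krt17 was higher by 6.60 on the log2 scale against primary WT and by 8.46 against primary KO. Krt16 was also large and higher (470 to 1672 CPM in cancer, 91.4 to 273 CPM in primary, log2 2.84), and 37.6% of its transcript's 50-base windows occur in another gene. The 3 integrin genes of the list, which encode receptors for basement membrane laminins, were called higher: Itga6 (1006 to 2450 CPM in cancer, 223 to 245 CPM in primary, log2 2.73), Itga3 (log2 1.56) and Itgb4 (log2 1.25). The laminin genes Lama3 (log2 1.08) and Lamb3 (log2 0.99) were called higher, below the large threshold.

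The 3 large and lower genes of the basal list were Pdpn, Sox9 and Krt15. Pdpn, a mucin-like glycoprotein, had 0.0197 to 0.285 CPM in cancer and 22.4 to 112 CPM in primary libraries (log2 -9.10). Sox9, a progenitor transcription factor, had 6.78 to 35.6 CPM in cancer and 108 to 262 CPM in primary libraries (log2 -3.0). Krt15 had 143 to 363 CPM in cancer and 1447 to 1869 CPM in primary libraries (log2 -2.68). Shh, which stands in both the luminal and the basal list, was called lower (log2 -5.58), but its primary WT level was only 0.0595 to 0.305 CPM and overlapped with cancer, while primary KO had 12 to 13.7 CPM.

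Squamous genes moved both ways. Of 28 tested members 13 were large and higher and 5 large and lower, with a median log2 fold change of 1.96. Krt1, a keratin of suprabasal epidermis, was among the large and higher members. Krt1 had 131, 719, 540 and 53.5 CPM in the cancer libraries labelled WT 1, WT 2, KO 1 and KO 2, against 3.54 to 12.04 CPM in primary WT and 1.57 to 2.07 CPM in primary KO (log2 6.72, SE 0.79, edgeR adjusted p = 3.95e-05). Its partner Krt10 had 44.9, 1008, 973 and 64.4 CPM in cancer and 4.04 to 15.6 CPM in primary libraries (log2 6.13). The libraries labelled WT 2 and KO 1 stood above the other 2 cancer libraries for both keratins, and all 4 stood above every primary library. Krtdap, a secreted keratinocyte protein, had 20.7, 178, 213 and 128 CPM in cancer and 0.104 to 0.351 CPM in primary libraries (log2 9.43). Tgm3, a transglutaminase of the cornified envelope, had 5.91, 79.5, 168 and 15.01 CPM in cancer and 0.119 to 0.333 CPM in primary libraries (log2 8.44). Klk6, a kallikrein protease, had 2.17 to 15.4 CPM in cancer and 0 to 0.0650 CPM in primary libraries (log2 7.93), and Dsg1a, a desmosomal cadherin with 35.0% shared windows, 4.48 to 72.3 CPM and 0 to 0.0404 CPM (log2 11.56).

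Among the large and lower members was Ivl, involucrin, a precursor of the cornified envelope. Ivl had 159, 60.5, 97.8 and 16.1 CPM in cancer and 713 to 859 CPM in primary libraries (log2 -3.22). Krt4, a mucosal keratin, had 0.647 to 27.1 CPM in cancer and 126 to 493 CPM in primary libraries (log2 -4.08), while its partner Krt13 was not called and overlapped (11.98 to 311 CPM against 183 to 200 CPM, adjusted p = 0.604 by edgeR). The small proline-rich genes, which encode envelope precursors, split. Sprr1a had 104.6, 182, 300 and 41.3 CPM in cancer and 1347 to 2850 CPM in primary libraries (log2 -3.73), and Sprr3 (log2 -4.72) and Sprr2d (log2 -4.12) were lower too. Sprr1b had 17.98, 92.3, 176 and 29.4 CPM in cancer, 2.65 to 8.25 CPM in primary WT and 0.149 to 0.493 CPM in primary KO (log2 6.07). These paralogs thus differed in opposite directions.

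**Figure D2:**
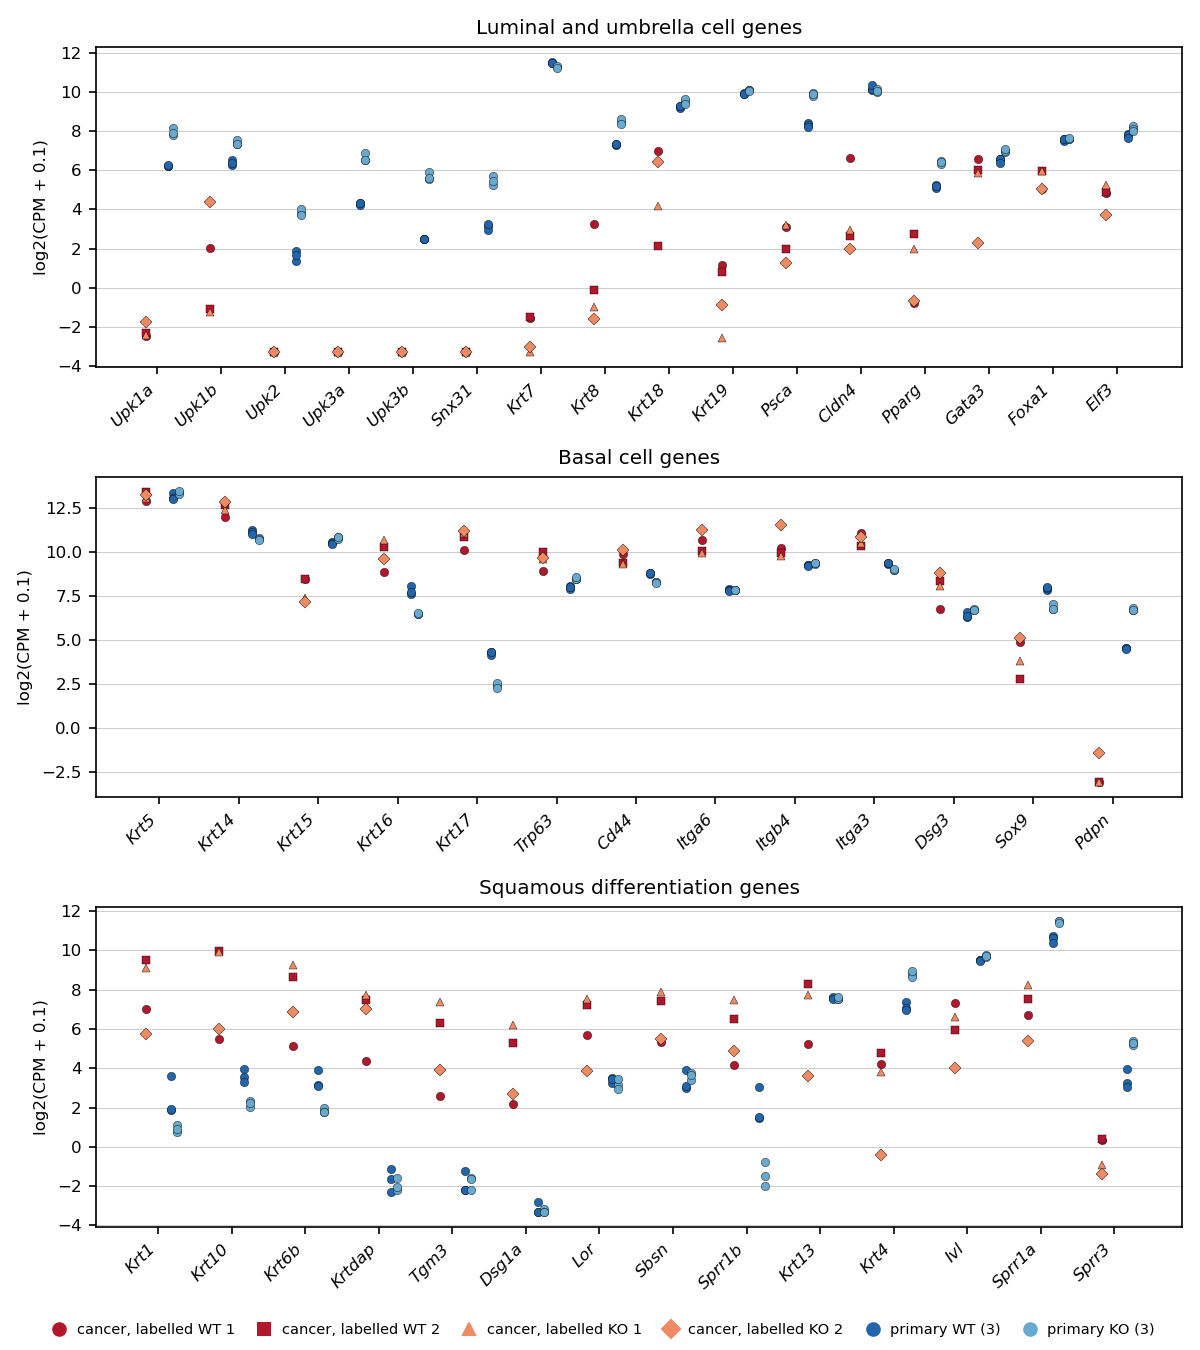
Levels of luminal, basal and squamous genes in each library, as log2 of CPM + 0.1, with 1 marker shape for each cancer library and circles for the 3 primary WT and 3 primary KO libraries. Upk2, Upk3a, Upk3b and Snx31 lie at 0 CPM in all 4 cancer libraries, Krt5 lies at like levels in all 10 libraries, and the cancer libraries labelled WT 2 and KO 1 lie highest for Krt10, Tgm3 and Dsg1a.

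The promoters of Sprr1a and Sprr1b are shown because the 2 paralogs differed in opposite directions. The AP-1 motif TGANTCA, searched on both strands and shown in capitals, occurred 2 times in the window of Sprr1a and 1 time in that of Sprr1b.
Sprr1a, chr3:92485882-92486131, minus strand: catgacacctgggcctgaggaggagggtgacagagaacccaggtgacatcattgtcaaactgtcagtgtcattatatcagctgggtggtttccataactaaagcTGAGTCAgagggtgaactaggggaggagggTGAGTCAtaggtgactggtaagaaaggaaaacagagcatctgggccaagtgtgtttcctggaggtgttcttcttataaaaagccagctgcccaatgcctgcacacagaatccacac
Sprr1b, chr3:92438780-92439029, minus strand: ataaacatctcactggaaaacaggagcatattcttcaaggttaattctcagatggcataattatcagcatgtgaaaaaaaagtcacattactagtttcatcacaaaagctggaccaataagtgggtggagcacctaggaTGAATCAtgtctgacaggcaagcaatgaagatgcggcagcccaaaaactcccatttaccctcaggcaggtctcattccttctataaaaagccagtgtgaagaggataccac
Of the 20 squamous genes with a window, 11 held TGANTCA (55.0%), against 543 of all 10955 windows (4.96%). The motif occurred in 5 squamous genes that were large and higher, 3 large and lower and 3 neither, and 4, 1 and 4 such genes lacked it. The match is a description of letters and not of binding, and several of these genes are paralogs that share sequence.

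Few markers of other cell types had enough counts to be tested. Of the immune list 6 of 25 genes were tested. Ptprc, the common leukocyte antigen, had 0.118 to 0.894 CPM in cancer and 0 in primary libraries. Cd14, which epithelia also express, made up most of the list's level in the primary libraries and was lower in cancer (2.83 to 7.64 CPM against 55.3 to 82.2 CPM, log2 -3.67). The summed immune level was 9.45 to 12.3 CPM in cancer and 67.6 to 104.9 CPM in primary libraries. Of the fibroblast list 8 of 15 were tested and 1 was large, Col1a1 (0.0786 to 0.190 CPM in cancer, 1.24 to 3.65 CPM in primary, log2 -4.24). The fibroblast sum was 1.37 to 23.8 CPM in cancer and 14.6 to 39.8 CPM in primary libraries. Of 4 tested endothelial genes Flt1 and Eng were large and lower, with a list sum of 0.776 to 6.29 CPM in cancer and 9.31 to 11.6 CPM in primary libraries. Of 4 tested smooth muscle genes Acta2 was large and lower (0 to 0.107 CPM against 5.79 to 21.4 CPM) and Tagln large and higher (1.05 to 1.51 CPM against 0 to 0.0595 CPM). The list's sum overlapped (178 to 344 CPM in cancer, 177 to 239 CPM in primary). Adipocyte and erythroid sums stayed under 1 CPM in every library, with 0 adipocyte genes tested and 1 erythroid gene, Alas2, large and higher. Of 14 neuroendocrine genes 8 were tested, and 2 of these were large and higher: Tubb3 (5.16 to 106 CPM against 0.0130 to 0.202 CPM) and Syp (4.36 to 16.1 CPM against 0 to 0.286 CPM). Uchl1 was large and lower. Genes near 0 in primary libraries, such as Tubb3, can pass the filter on low counts through the cancer libraries alone. Shares among tested genes of these short lists thus follow in part from the filter. The part of these other cell types in other results was not tested.

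Proliferation genes were higher in cancer as a block. All 35 tested mitosis genes were large and higher, with log2 fold changes of 2.18 (Cenpa, the centromeric histone) to 5.29 and a median of 3.73. Mki67 (chromosome 7, 135689784 to 135716450, GRCm38), the usual marker of cycling cells, had 892, 979, 960 and 947 CPM in the cancer libraries labelled WT 1, WT 2, KO 1 and KO 2, against 19.7, 10.1 and 10.5 CPM in primary WT and 53.2, 31.6 and 44.9 CPM in primary KO (log2 5.29, SE 0.23, edgeR adjusted p = 4.94e-08). The 4 cancer libraries lay close together, and primary KO lay between them and primary WT. Top2a, the topoisomerase that untangles chromosomes, had 1026, 911, 923 and 1326 CPM in cancer, 17.2 to 28.5 CPM in primary WT and 53.01 to 86.3 CPM in primary KO (log2 4.77). Cdc20, the activator of the anaphase-promoting complex, had 211 to 324 CPM in cancer and 7.67 to 46.4 CPM in primary libraries (log2 3.73), and Ccnb1, cyclin B1, 286 to 345 CPM and 3.94 to 23.8 CPM (log2 4.83). The median of the mitosis list was 4.50 against primary WT and 2.89 against primary KO.

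DNA replication genes were higher too. Of 35 tested, all were called higher and 24 were large, with a median log2 fold change of 2.74. Mcm10, a replication origin factor, had 85.7 to 98.5 CPM in cancer and 1.497 to 6.86 CPM in primary libraries (log2 4.79). Ccne2, cyclin E2, had 29.2 to 38.8 CPM in cancer and 0.625 to 2.53 CPM in primary libraries (log2 4.62). E2f2, an activating E2F factor, had 19.5 to 41.8 CPM in cancer and 0.624 to 1.43 CPM in primary libraries (log2 5.03), and Pole, the leading-strand polymerase, 92.4 to 119 CPM and 2.45 to 10.5 CPM (log2 4.36). None of these 4 genes overlapped between the sets.

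The promoters of Top2a, Cdc20 and Mki67 are shown because cell cycle genes are known for pairing CCAAT boxes, bound by NF-Y, with the CHR element TTTGAA, bound by the DREAM and MuvB complexes. Capitals mark CCAAT and TTTGAA on either strand, so that ATTGG and TTCAAA are reverse matches. The windows of Top2a, Cdc20 and Mki67 held 6, 2 and 3 CCAAT and 2, 1 and 2 TTTGAA.
Top2a, chr11:99024190-99024439, minus strand: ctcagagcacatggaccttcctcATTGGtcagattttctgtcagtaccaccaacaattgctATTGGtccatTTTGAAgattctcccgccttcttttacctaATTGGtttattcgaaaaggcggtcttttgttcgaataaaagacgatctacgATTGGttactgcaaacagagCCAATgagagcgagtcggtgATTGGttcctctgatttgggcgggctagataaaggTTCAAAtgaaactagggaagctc
Cdc20, chr4:118437344-118437593, minus strand: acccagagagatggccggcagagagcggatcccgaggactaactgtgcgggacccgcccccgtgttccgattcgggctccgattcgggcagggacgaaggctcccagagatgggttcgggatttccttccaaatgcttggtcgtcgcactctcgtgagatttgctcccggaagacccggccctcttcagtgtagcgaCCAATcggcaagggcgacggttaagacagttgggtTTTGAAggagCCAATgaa
Mki67, chr7:135716380-135716629, minus strand: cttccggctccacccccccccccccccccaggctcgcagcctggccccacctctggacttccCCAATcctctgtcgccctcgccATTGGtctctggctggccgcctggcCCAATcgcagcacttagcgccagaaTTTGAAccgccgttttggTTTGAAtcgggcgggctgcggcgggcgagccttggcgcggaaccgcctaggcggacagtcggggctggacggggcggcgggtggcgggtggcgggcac
Of 35 mitosis genes 29 had a window; CCAAT occurred in 21 of them (72.4%) and TTTGAA in 8 (27.6%), against 36.6% and 10.7% of the 10955 windows of tested genes. Both occurred together in 7 mitosis genes (24.1%), in 4.26% of all windows, in 7.74% of large genes higher in cancer and in 3.83% of large genes lower in cancer. Among 27 DNA replication genes 17 held CCAAT (63.0%) and 3 held TTTGAA (11.1%). The E2F motif GGCGGGAA occurred in 0 mitosis genes and 3 replication genes, against 3.41% of all windows. The GATA motif AGATAA and the grainyhead-like motif AACCNGTT, searched for the luminal list, occurred in 3 and 1 of its 20 windows, against 5.86% and 1.62% of all. No motif contains another, and no match says only that these letters are not in the window.

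Cell cycle inhibitors and other G1 regulators differed both ways: of 18 tested, 8 were called higher and 5 lower, with a median log2 fold change of 0.28. Over all genes tested 38.9% were called higher and 38.2% lower. Cdkn1a (chromosome 17, 29090979 to 29100722, GRCm38), which encodes p21, had 52.2, 39.3, 54.0 and 32.0 CPM in the cancer libraries and 371 to 589 CPM in the primary ones (log2 -3.39, SE 0.16, edgeR adjusted p = 8.09e-08). Cdkn2b, which encodes p15, had 8.96 to 14 CPM in cancer and 98.9 to 222 CPM in primary libraries (log2 -3.62). The neighbouring gene Cdkn2a, which encodes p16 and p19Arf, was called higher but overlapped with primary WT (97.7 to 182 CPM in cancer, 151 to 163 CPM in primary WT, 52.7 to 71.3 CPM in primary KO, log2 0.54, adjusted p = 0.0117 by edgeR). Cdkn2c, which encodes p18, was large and higher (30.0 to 56.3 CPM against 4.66 to 13.0 CPM, log2 2.57). Among growth regulators, Myc did not differ detectably (174 to 196 CPM in cancer, 171 to 203 CPM in primary, log2 -0.02, SE 0.05, adjusted p = 0.763 by edgeR). Mycl was large and lower (1.45 to 9.20 CPM against 104 to 165 CPM, log2 -4.65). Ccnd1, cyclin D1, overlapped between the sets (689 to 1277 CPM against 1153 to 1320 CPM, log2 -0.50). Of the 18 tested genes of this G1 list, 1 was large and higher and 3 large and lower, near the shares over all genes tested (10.1% and 13.4%).

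Targets of p53 tended lower. Of 34 tested, 24 were called lower and 5 higher, 10 and 1 of them large, with a median log2 fold change of -1.25. The gene itself, Trp53, had 145 to 161 CPM in cancer and 205 to 269 CPM in primary libraries (log2 -0.65, SE 0.05, edgeR adjusted p = 2.29e-06). Bbc3, which encodes the death activator PUMA, had 1.38 to 2.43 CPM in cancer and 20.5 to 25.3 CPM in primary libraries (log2 -3.72). Eda2r, a death receptor, was lower by 3.52 and the carbonyl reductase Dcxr by 5.07 on the log2 scale. The large and higher member was Ckap2, a mitotic spindle protein (81.7 to 91.7 CPM against 4.26 to 15.4 CPM, log2 3.32). Mdm2, the negative regulator of p53, was lower without overlap but below the large threshold (log2 -1.12).

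**Figure D3:**
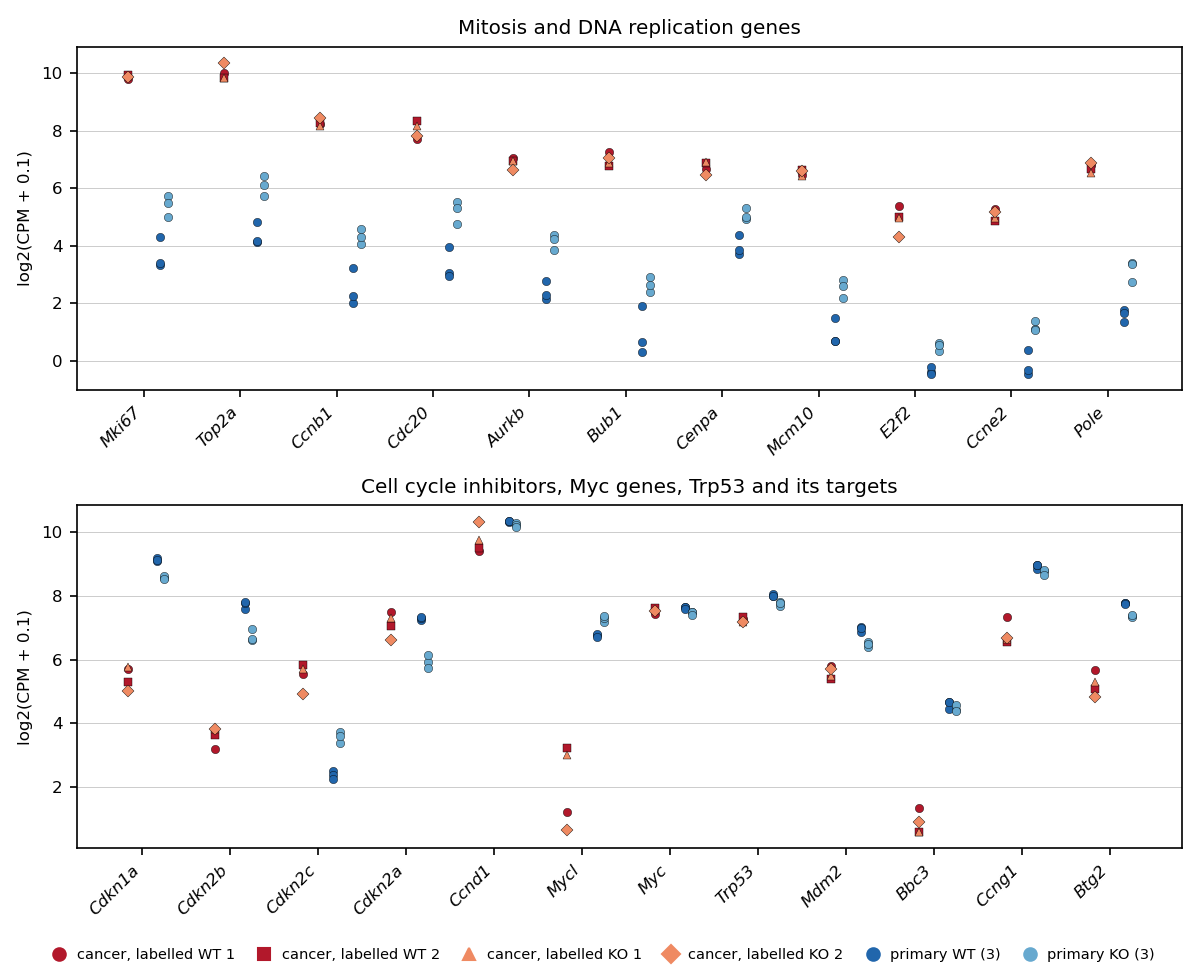
Levels of cell cycle genes, inhibitors and p53 targets in each library, as log2 of CPM + 0.1. All 4 cancer libraries lie above all 6 primary libraries for the 11 genes of the upper panel and below them for Cdkn1a, Cdkn2b, Mycl, Trp53, Mdm2, Bbc3, Ccng1 and Btg2, while Myc, Cdkn2a and Ccnd1 overlap.

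Interferon response genes were lower. Of 39 tested, 16 were large and lower and 2 large and higher, with a median log2 fold change of -1.77 (-1.70 with genes at 0 in cancer set to their bound). Usp18, a negative regulator of interferon signalling, had 0.896, 0.0590, 0.171 and 0.0190 CPM in the cancer libraries and 36.7 to 46.3 CPM in the primary ones (log2 -7.18, SE 0.78, edgeR adjusted p = 2.16e-05). The antiviral GTPase gene Mx1 had 0 to 0.1498 CPM in cancer and 7.01 to 8.96 CPM in primary libraries (log2 -7.37). Oasl1, an oligoadenylate synthetase-like gene, had 0 to 0.0597 CPM in cancer and 2.16 to 10.1 CPM in primary libraries (log2 -7.21). The upstream factors Irf7 (log2 -5.82) and Irf9 (log2 -1.97) were lower in all 4 cancer libraries. Ifit2 (log2 2.33) and the chemokine gene Cxcl10 (log2 2.38) were large and higher. Without the cancer libraries labelled WT 1 and KO 1 the list held 25 large and lower and 0 large and higher of 42 tested.

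Other immune-related lists were mixed. Of 29 tested NFkB cytokine genes 8 were large and lower and 3 large and higher. Csf2, which encodes GM-CSF, had 0.0380 to 0.0428 CPM in cancer and 37.0 to 58.1 CPM in primary WT and 3.83 to 5.06 CPM in primary KO (log2 -8.46). Il33, an epithelial alarmin, had 36.3, 2.12, 1.16 and 2.61 CPM in cancer and 432 to 901 CPM in primary libraries (log2 -5.91). Without the libraries labelled WT 1 and KO 1 this list had 12 large and lower and 1 large and higher. Of 18 tested MHC class I genes 3 were large and higher and 2 large and lower. These shares lay a little above and below those over all genes tested (10.1% and 13.4%). The 3 higher genes lay just inside the threshold: Calr (log2 2.07), Erap1 (log2 2.005) and Nlrc5, the class I transactivator (log2 2.09). Only 2 were large and higher with DESeq2 size factors, and 1 with the replicate block or the length trend taken out. The lower genes included the immunoproteasome gene Psmb8 (0 to 0.458 CPM against 1.28 to 2.21 CPM, log2 -3.53).

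Enzymes of retinoid and xenobiotic metabolism, which urothelial cells use against urinary compounds and for retinoic acid synthesis, were largely lower. Of 25 tested, 17 were large and lower and 2 large and higher, with a median log2 fold change of -3.65. Aldh1a1, a retinaldehyde dehydrogenase, had 0.338, 0, 0 and 0.0951 CPM in cancer, 41.7 to 45.7 CPM in primary WT and 70.4 to 74.2 CPM in primary KO (log2 -8.97, SE 0.69, edgeR adjusted p = 1.99e-06). Aldh1a3 had 0.0597 to 4.17 CPM in cancer and 81.6 to 240 CPM in primary libraries (log2 -6.75). Adh1, an alcohol dehydrogenase, had 1 count over the cancer libraries and 6473 over the primary ones, a ratio of 2953 with an exact 95% counting interval that begins at 529.8. The retinoid-binding gene Crabp2 (9.74 to 36.2 CPM against 0.819 to 2.58 CPM, log2 3.83) and Cyp1b1 (log2 2.67) were the 2 large and higher members. Of 35 tested NRF2 and glutathione genes 4 were large and lower, near the 13.4% of all genes tested, and 0 large and higher. The 4 included Gsto1 (119 to 529 CPM against 2107 to 2895 CPM, log2 -2.99) and Mgst1 (log2 -7.18). Gstm2 was the fourth by the rule, with 24.1 CPM in the cancer library labelled KO 2 and 0.334 to 1.06 CPM in the other 3 (adjusted p = 0.0349 by edgeR). It lost its call without any of 9 single libraries, without the libraries labelled WT 1 and KO 1 together, and with the length trend taken out (adjusted p = 0.0515 to 0.105).

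Epithelial junction genes, of tight junctions and other contacts, were mostly lower. Of 26 tested junction genes 16 were called lower and 4 higher, with a median log2 fold change of -1.06. Of these, 10 were large and lower and 2 large and higher. Cldn3 had 0 counts in every cancer library and 8.76 to 10.4 CPM in primary libraries, at least 149-fold lower. Cldn4 had 100.8 CPM in the cancer library labelled WT 1 and 3.82 to 7.66 CPM in the other 3, against 1024 to 1311 CPM in primary libraries (log2 -5.27). Cldn7 (log2 -8.53), Tjp3 (log2 -7.20) and Ocln (log2 -4.09), which encode a claudin, a scaffold and occludin, were lower in every cancer library. Epcam had 57.0 to 81.2 CPM in cancer and 158 to 602 CPM in primary libraries (log2 -2.24). Cdh1, E-cadherin, had 138 to 200 CPM in cancer and 263 to 379 CPM in primary libraries (log2 -0.95). Dsp, desmoplakin, had 1270 to 2852 CPM in cancer and 453 to 683 CPM in primary libraries (log2 2.04) and was with Cldn8 (log2 4.02) large and higher.

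Mesenchymal genes were not higher as a group. Of 21 tested genes linked to epithelial-mesenchymal transition 5 were large and lower and 0 large and higher, with a median log2 fold change of -1.16. That median came from the WT contrast. It was -2.31 against primary WT (4 called higher, 9 lower) and -0.01 against primary KO (7 higher, 5 lower). Fn1, fibronectin, had 0.378, 0, 0 and 2.49 CPM in cancer, 254 to 408 CPM in primary WT and 29.6 to 48.0 CPM in primary KO (log2 -7.28). Vim, vimentin, had 29.4 CPM in the cancer library labelled WT 1 and 0.0197 to 0.342 CPM in the other 3, against 28.6 to 85.5 CPM in primary libraries (log2 -2.85, adjusted p = 0.104 by edgeR). Without the library labelled WT 1 Vim was lower by 8.45 on the log2 scale (adjusted p = 9.62e-07 by edgeR). Of 32 tested matrix genes 4 were large and higher and 5 large and lower, near the shares over all genes tested (10.1% and 13.4%). Col12a1 had 19.4, 313, 328 and 65.5 CPM in cancer and 0.655 to 2.43 CPM in primary libraries (log2 7.10). Col4a6 and Lama1, of basement membrane, were at 0 in all 4 cancer libraries and at least 69.52-fold and 38.96-fold lower.

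Hox genes were mostly lower, and Notch, Wnt and imprinted genes differed both ways. Of 27 tested Hox genes 18 were called lower and 4 higher, with a median log2 fold change of -0.79. Of these, 6 were large and lower and 0 large and higher. Hoxb2 had 0.239, 2.58, 0.0428 and 0 CPM in cancer and 19.1 to 24.9 CPM in primary libraries (log2 -4.94). Hoxd13, a gene of the posterior body, had 101.1, 199 and 182 CPM in the cancer libraries labelled WT 1, WT 2 and KO 1 but 1.503 CPM in that labelled KO 2, against 1.84 to 3.30 CPM in primary libraries (log2 5.51). Hoxd13 thus overlapped through that 1 library, and without it the list held 2 large and higher genes. Of 15 Notch pathway genes 5 were large and lower and 2 large and higher, among them Hes6 (log2 -2.66) and the ligand gene Dll1 (133 to 227 CPM against 18.5 to 46.3 CPM, log2 2.61). Of 29 Wnt pathway genes 5 were large and lower and 1 large and higher: Ror2, a Wnt5a receptor, had 0 to 0.152 CPM in cancer and 13.3 to 32.0 CPM in primary libraries (log2 -8.82), and Notum, a secreted Wnt inhibitor, 1.59 to 7.38 CPM and 0.0271 to 0.429 CPM (log2 4.15). Of 18 imprinted genes 5 were large and higher and 4 large and lower: Mest (3.23 to 37.9 CPM against 0.0809 to 0.667 CPM, log2 6.01) and the noncoding RNA Kcnq1ot1 (log2 5.66) were higher, while Ndn was at 0 in cancer and at least 17.86-fold lower than in primary WT and 32.74-fold lower than in primary KO. H19 was not called, at 366, 1.18, 0.556 and 77.8 CPM in cancer, 27.1 to 46.0 CPM in primary WT and 809 to 1021 CPM in primary KO. Of 25 germline and developmental genes 10 were tested and 5 were large and higher, all low. Genes near 0 in primary libraries can pass the filter on low counts through the cancer libraries alone. The share among tested genes thus follows in part from the filter. With no such filter 5 of 19 were large and higher. Igf2bp1, a fetal RNA-binding protein, reached 16.9 CPM in the library labelled WT 1 and 2.67 to 4.62 CPM in the others, against 0 to 0.217 CPM in primary libraries.

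Among receptor and growth factor genes, 2 of 28 were large and higher and 3 large and lower, both under the shares over all genes tested (10.1% and 13.4%). Fgfbp1, a secreted carrier that releases FGFs, had 545 to 989 CPM in cancer and 29.7 to 37.99 CPM in primary libraries (log2 4.39, SE 0.16, edgeR adjusted p = 2.07e-08). Egfr had 80.0 to 142 CPM in cancer and 62.2 to 68.6 CPM in primary libraries (log2 0.73). Fgf1 (log2 -6.20) and Btc, betacellulin (log2 -2.66), were large and lower. Of 39 tested genes recurrently mutated or altered in bladder cancer 6 were large and lower, near the 13.4% of all genes tested, and 0 large and higher. The 6 included Txnip (37.9 to 54.3 CPM against 650 to 833 CPM, log2 -3.97) and Zfp36l1 (log2 -2.89). Of 24 BAF complex genes 1 was large: Dpf1, a neuronal BAF subunit, had 6.17 to 16.6 CPM in cancer and 0.0149 to 0.108 CPM in primary libraries (log2 7.41). Arid1b, the paralog of Arid1a, overlapped (82.7 to 110 CPM against 76.7 to 93.4 CPM, log2 0.24, adjusted p = 0.0214 by edgeR), and that call ended in 4 of the 10 fits without 1 library (adjusted p 0.0522 to 0.0809).

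Metabolic lists differed moderately. Of 24 cholesterol synthesis genes 21 were called higher and 3 were large, with a median log2 fold change of 1.23. Idi1, an isomerase of the pathway, was large and higher (log2 5.66), and 21.3% of its windows occur in another gene. Fatty acid synthesis gave 13 called higher of 17 and a median of 0.77, with Acaca large and higher (log2 2.55, 52.6% shared windows) and Acacb large and lower. Glycolysis and hypoxia genes were mixed, at 5 large and higher and 3 large and lower of 36. These shares lay a little above and below those over all genes tested (10.1% and 13.4%). The median was 0.07 and fell to -0.26 without the cancer libraries labelled WT 1 and KO 1. Slc16a1, the lactate carrier MCT1, had 328 to 487 CPM in cancer and 20.9 to 40.0 CPM in primary libraries (log2 3.64), and Car9, a hypoxia-induced carbonic anhydrase, was lower (log2 -4.25).

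Most ribosomal protein genes were called lower and most translation factor genes higher. Of 48 ribosomal protein genes 37 were called lower and 6 higher, with a median log2 fold change of -0.78, and 1 was large, Rpl37 (144 to 176 CPM against 777 to 869 CPM, log2 -2.43). The median was -0.46 with the length trend taken out, and -1.18 over the 11 genes left when those with near-identical copies were dropped. Of 39 translation factor genes 24 were called higher and 11 lower, none large, with a median of 0.51. Eef2, elongation factor 2, had 3321 to 4840 CPM in cancer and 8590 to 10540 CPM in primary libraries (log2 -1.20, SE 0.11, edgeR adjusted p = 7.49e-06). Its kinase Eef2k had 16.2, 56.8, 48.1 and 32.3 CPM in cancer, 104 to 107 CPM in primary WT and 172 to 187 CPM in primary KO (log2 -1.83). Of 33 genes of the integrated stress response 5 were large and higher, among them the amino acid carriers Slc7a1 (log2 3.20) and Slc7a5 (log2 2.75), and 2 large and lower. Nupr1, a stress-induced chromatin protein, had 0.916, 2.67, 5.01 and 2.85 CPM in cancer and 528 to 857 CPM in primary libraries (log2 -7.89). Of 22 immediate early genes 3 were large and lower (Btg2, Jun and Dusp1), near the 13.4% of all genes tested, and 0 large and higher.

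**Figure D4:**
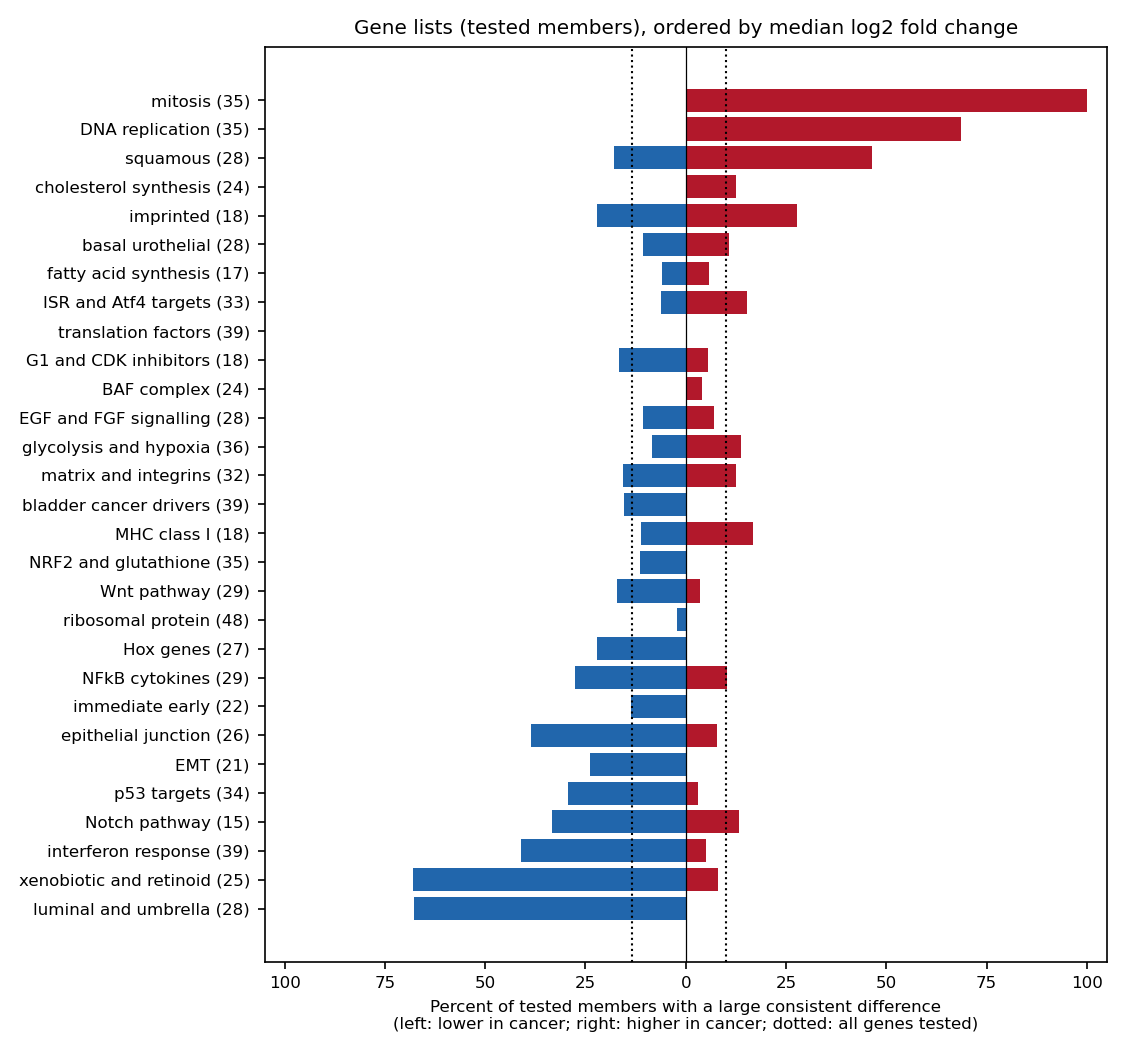
For each list with at least 15 tested genes (number in parentheses), bars give the percent of tested members large and higher (right) or large and lower (left) in cancer, and dotted lines give the same over all genes tested, 10.1% and 13.4%. Mitosis, DNA replication and squamous lists extend farthest to the right, and luminal, xenobiotic and interferon lists farthest to the left.

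The largest single differences included genes outside these lists. Of well-counted genes (average log2 CPM at least 4) the highest by fitted log2 fold change were Sostdc1, Grik3, Cmah, Pitx1 and Elavl2. Sostdc1 had 0 primary counts, so its fitted value is no bound and its rank is not settled. Pitx1 (chromosome 13, 55825044 to 55836190, GRCm38), a homeobox factor of hindlimb and pituitary, had 321, 613, 464 and 610 CPM in the cancer libraries labelled WT 1, WT 2, KO 1 and KO 2 and 0.0520 to 0.122 CPM in primary libraries (log2 12.49, SE 0.30, edgeR adjusted p = 3.97e-09). Cmah, the enzyme that makes the sialic acid Neu5Gc, had 345, 259, 240 and 312 CPM in cancer and 0 to 0.119 CPM in primary libraries (log2 12.73). Over the cancer libraries Cmah varied less (standard deviation 48.2 CPM, mean 289 CPM) than Pitx1 (139 CPM, mean 502 CPM). Elavl2, a neuronal RNA-binding protein, had 32.4 to 234 CPM in cancer and 0.0267 to 0.148 CPM in primary libraries (log2 11.24). Grik3, a glutamate receptor subunit, had 129 and 226 CPM in the libraries labelled WT 1 and KO 2 and 4.23 and 2.40 CPM in those labelled WT 2 and KO 1, against 0 to 0.0539 CPM in primary libraries. Sostdc1, a secreted BMP and Wnt antagonist, had 52.9, 29.6, 15.4 and 343 CPM in cancer and 0 counts in all primary libraries, at least 2470-fold higher. Ptprz1, Gpr165 and Calm4 also stood among the 14 highest, with lowest cancer levels of 2.75, 11.98 and 19.99 CPM and highest primary levels of 1.70, 1.88 and 0.849 CPM.

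The lowest by fitted log2 fold change were Basp1, Aqp4, Upk3a, Krt7 and Capn13. All but Krt7 had 0 cancer counts, so their fitted values are no bounds and their ranks are not settled. Basp1, a membrane protein of growth cones, had 0 counts in all 4 cancer libraries, 180 to 198 CPM in primary WT and 32.4 to 47.2 CPM in primary KO, at least 2955-fold lower than in primary WT and 603.7-fold lower than in primary KO. Aqp4, a water channel, was at 0 in cancer and at 44.3 to 72.3 CPM in primary libraries, at least 911-fold lower, and the calpain gene Capn13 at least 553.6-fold. Vtcn1, the immune checkpoint ligand B7-H4, had 2 counts over the cancer libraries and 23575 over the primary ones, a ratio of 5377 with an interval that begins at 1488. Slc40a1, the iron exporter ferroportin, had 0 to 0.0571 CPM in cancer and 49.3 to 71.7 CPM in primary libraries (log2 -11.50), and Gsdmc2, a gasdermin with 46.9% shared windows, 0 to 0.214 CPM and 165 to 301 CPM (log2 -11.01). In all, 30 genes had 0 counts in all 4 cancer libraries and at least 1 CPM in all 6 primary ones, and 27 showed the opposite, of which 12 were neither predicted models nor pseudogenes. The highest of those 12 after Sostdc1 were the RNA editing gene Adarb2 (29.7 to 40.9 CPM in cancer) and the kallikrein gene Klk14 (2.42 to 35.7 CPM).

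Differences also went with properties of the transcripts. The median log2 fold change, cancer minus primary, was -0.38 for genes whose longest GENCODE M21 transcript is 1000 to 2000 bases and 0.73 for those over 8000 bases, and it was 0.68 for genes with more than 25 exons. Genes with at least 20% of their 50-base windows in another gene were large and higher in 20.3% of cases, against 9.08% of genes with under 5%. The enolase genes were an example: Eno1b, with 84.5% shared windows, had 314 to 402 CPM in cancer and 0.293 to 0.744 CPM in primary libraries, and Eno1, with 68.0%, 29.7 to 37.7 CPM and 2.49 to 3.27 CPM. Small nucleolar RNA genes were large and higher in 68.9% of 45 cases. Rn45s was lower (log2 -3.29), Malat1 higher (log2 2.35) and Neat1 lower (log2 -2.78). What these properties add to the gene differences above was not tested beyond the fits with the length trend or the shared genes taken out, and in those the 35 tested mitosis genes gave 35 and, of 33 left, 33 large and higher.

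**Figure D5:**
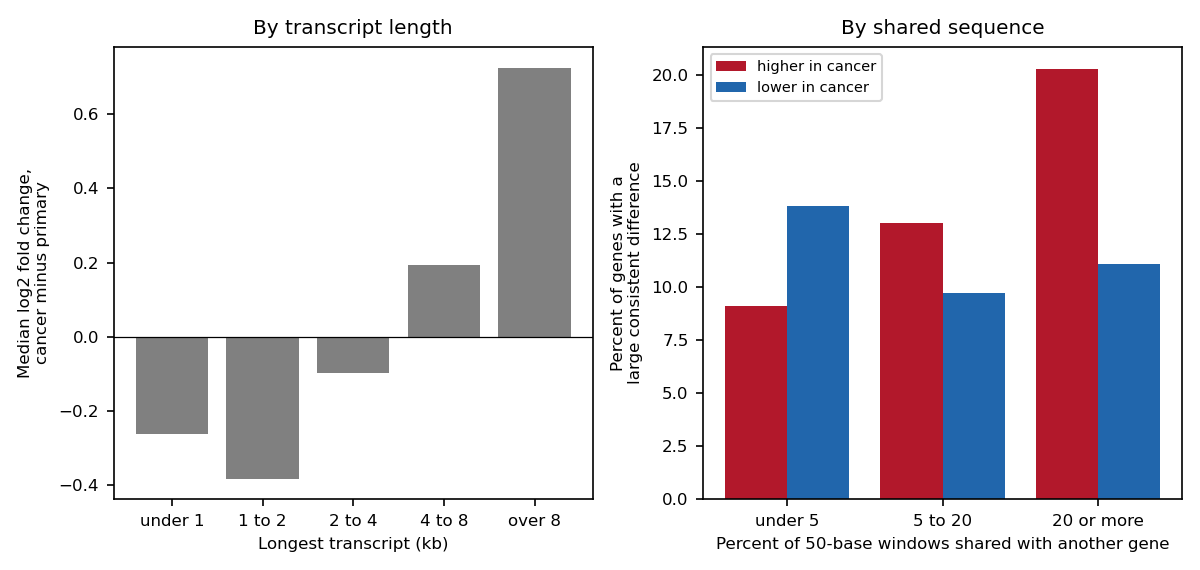
Left, the median log2 fold change, cancer minus primary, by length of the longest transcript. Right, the percent of genes large and higher or large and lower by the share of 50-base windows that occur in another gene; large and higher genes rise from 9.08% to 20.3%.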

How the data were processed

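RNA of 4 bladder cancer organoid samples and 6 primary bladder urothelial organoid samples was extracted with a column kit that included a DNase step and read on Illumina machines, per the labels' protocols. The authors deposited unnormalized read counts for 24421 gene symbols. HTSeq and mm10 are named for all 10 libraries and Bowtie for the primary ones, per the submitters' processing notes. Not given in the sources used here are the aligner of the cancer libraries, tool versions, annotation, strand setting and the handling of multiply matching reads, so antisense pairs and near-identical copies may exchange reads.

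Counts were fitted in edgeR 4.0.16 (R 4.3.3, limma 3.58.1) with TMM factors, filterByExpr and the quasi-likelihood F test, as 3 group means (cancer, primary WT, primary KO). The contrast was cancer minus the mean of both primary groups, with Benjamini-Hochberg adjustment over 13901 genes and a threshold of 0.05. Dividing a log2 fold change by the root of its F statistic gave the standard error. A count of 0 allows 3 counts per library, and such floors and counting intervals cover counting error only. The cancer libraries formed 1 group because 2 of their Arid1a counts run against the labels. Scripts were tested on simulated data.

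Of the 40 gene lists, the mitochondrially encoded one had no member in the files, and the RNA class and Y-linked lists served as technical checks: 4 of 5 tested RNA class genes were large and lower and 1 large and higher, and 0 of 4 tested Y-linked genes were called. Named genes were the 14 highest and 14 lowest large genes whose average log2 CPM reached 4 (no predicted models, pseudogenes, small RNAs or Y-linked genes), up to 4 large members of each list, a fixed set, and the 6 highest genes at 0 in 1 set. The text describes a choice of them, and members named beyond this rule (such as Hoxd13 and several basal, squamous and junction genes) were chosen after their values were seen. Some genes counted in the lists are not reported here by name. The members and lists were chosen with earlier results of these data known. Gene positions and promoter windows came from RefSeq (GRCm38.p6), where 23200 symbols matched directly and 1095 by synonym, and transcript lengths from GENCODE M21. Alternatives were DESeq2 1.42.0, limma-voom, other size factors, no filter, other genotype terms, the replicate block and leaving out libraries. Added after the data were seen were fits without the cancer libraries labelled WT 1 and KO 1, with the length trend taken out, and without genes sharing at least 20% of their windows.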

Additional observations from a re-analysis of the deposited data

Results flagged for a closer look

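In each of 157 measures (named genes and library totals), the outermost of the 4 cancer libraries was compared with the other 3. A single library stood apart, by a gap above Dixon's 95% critical share of the range, in 21 of them (13.4%). That limit flags 1 in 20 groups of normally distributed values, and CPM are not such values. Where a single library had any count and the others 0, a flag was certain. The 21 flags are thus a description and give no comparison with chance. The library labelled KO 2 was the one in 11 cases, those labelled WT 1 and WT 2 in 5 each and KO 1 in 0. In all 21 the flagged library was the highest, on a scale that cannot fall below 0.

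The library labelled KO 2 was highest for Sostdc1 (343.1 CPM, others 15.4 to 52.9 CPM), Slc16a1 (486.9 CPM, others 327.5 to 350.0 CPM), Zfp36l1 (110.7 CPM, others 87.6 to 89.6 CPM) and Gstm2 (24.1 CPM, others 0.334 to 1.06 CPM). It was also highest for Igf2 (3.54 CPM), Fn1 (2.49 CPM), Pdpn (0.285 CPM), Col1a1 (0.190 CPM) and Ror2 (0.152 CPM), all low. Adh1 and Peg10 were listed there at 0.0190 CPM, which is 1 count, and at 0 in the other 3.

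The library labelled WT 1 was highest for Cldn4 (100.8 CPM, others 3.82 to 7.66 CPM), Il33 (36.3 CPM, others 1.16 to 2.61 CPM), Vim (29.4 CPM, others 0.0197 to 0.342 CPM) and Igf2bp1 (16.9 CPM, others 2.67 to 4.62 CPM), and for Dll4 at 0.0398 CPM, which is 2 counts. The library labelled WT 2 was highest for Rn45s (3071 CPM, 0.299% of its counts, others 0.191% to 0.199%), Hoxb2 (2.58 CPM), Rbms3 (0.157 CPM) and Vill (0.0197 CPM, 1 count).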

How the results depend on the processing

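Every count of genes stayed within 1.5 times its reported value under the other tools, scalings, filters and genotype terms, except where the size asked for was changed. A test against an absolute log2 fold change of 1 (glmTreat) called 5329 genes, and setting the large threshold at log2 1 or 3 gave 5985 or 2125 large and consistent genes. Without 1 library at a time the counts ranged from 10452 to 10967 for genes called, 9496 to 10563 against primary WT, 9516 to 10626 against primary KO and 3249 to 3405 for large and consistent differences. Without the cancer libraries labelled WT 1 and KO 1, 10893 genes were called and 3528 were large and consistent. Same-numbered primary WT and KO libraries deviated little together from their group means (r = 0.112, 0.026 and -0.054). With so few libraries such values cannot settle whether the numbers pair samples. With the replicate block 10012 genes were called (9459 against WT, 9501 against KO) and 3245 were large and consistent. Over 168 named genes and 21 alternatives, 3458 of 3498 values kept their direction and side of the threshold, 25 lost and 13 gained a call, and 2 reversed, both with the length trend taken out: Arid1b to -0.47 and Myc to 0.22. The cause was not tested. Of 148 named genes large in the reported fit, 130 were large under every alternative that gave a value. Depth limits genes near 0: 3 counts correspond to up to 0.0642 CPM in cancer and 0.0446 CPM in primary libraries.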
